A study of Mus musculus with 5 samples.

Results

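Untreated epiblast stem cells (EpiSCs) were compared with embryonic stem cells (ESCs) kept in leukaemia inhibitory factor (LIF) and serum, gene by gene, with 1 RNA-seq library on each side. Levels are FPKM, fragments counted relative to transcript length and library size. A gene was compared where its mean over both libraries reached 1 FPKM and both estimates carried the status OK, which left 10891 of 23951 genes. Of the others, 13056 lay under that mean, and 5 lacked the status OK in 1 or both libraries, 1 of which was also under the mean. A difference is that of log2(FPKM + 1), EpiSCs minus ESCs, so a positive value means a higher level in EpiSCs. The scale understates the change of low genes. "Higher" and "lower" in counts mean a difference of at least 1, which is 2-fold on that scale. The gene 1700007L15Rik, with a mean of 1.001 FPKM, was just inside the limit on the mean, and Tmsb15a, with 0.999965 FPKM, was just outside it.

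The ESCs were of the E14 line, a male mouse line, and grew on gelatin in DMEM with 15% fetal bovine serum and LIF at 1000 U/ml. The EpiSCs were derived in culture from ESCs, with E14 given as their source, and not from embryos. They grew on serum-coated plates in the serum-free N2B27 medium with FGF2 at 12 ng/ml and Activin A at 20 ng/ml, and received no BMP-4. The labels name no genetic change in either group. Cell state, medium, growth factors and plate coating differed together between both libraries and cannot be told apart. A group held 1 library and no replicate, so no difference was tested against a spread between cultures and no p-value is given. In bulk RNA, fewer cells of a type and less RNA per cell cannot be told apart either. A second pair of libraries that shares none with the first served to look at the same genes again: E14 ESCs in a serum-free basal medium with LIF and with 10 ng/ml of BMP-4, and the same kind of EpiSCs after 1.5 h of BMP-4 at 10 ng/ml. The estimated depth was about 8.51e+06 reads for ESCs in LIF and serum and 9.77e+06 reads for untreated EpiSCs, and between 8.91e+06 and 1.29e+07 reads for the other 3 libraries.

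Naive pluripotency is the state of the epiblast before implantation, which ESCs hold in culture with LIF. Primed pluripotency is the state of the epiblast after implantation, when it becomes a polarised epithelium, relies on FGF and Activin or Nodal signals, and stands close to gastrulation. Cells of both states express Oct4 and can form all germ layers, but they differ in adhesion, metabolism and chromatin, and the known pluripotency markers are only a small part of that.

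The labels were first checked against marker genes, of which those of the naive and primed states are known from earlier work. All 20 naive markers were lower in EpiSCs, with a median difference of -4.10, and 15 of 20 primed markers were higher, with a median of 2.75, while 5 lay within 2-fold. Of markers of other cells that either culture could hold, 9 of 10 definitive endoderm genes were compared, with 6 higher and 1 lower in EpiSCs. Several were near 0 on one side: with at least 1 FPKM on both, 1 of 4 was higher and 1 lower. The whole list summed to 62.6 FPKM in ESCs and 97.2 FPKM in EpiSCs. Sox17, an endoderm transcription factor, was at 0.0705 FPKM in ESCs and 3.63 FPKM in EpiSCs, and Foxa2, a factor of the node and endoderm, at 0.0583 FPKM in ESCs and 13.2 FPKM in EpiSCs. Only 2 of 13 mesoderm markers were compared, and their whole list summed to 2.68 FPKM in ESCs and 16.5 FPKM in EpiSCs. Fibroblast markers (3 of 13 compared) summed to 6.03 and 31.05 FPKM. Of neural progenitor markers 5 of 16 were compared, with 2 higher and 2 lower, and 4 of 16 were listed at 0 in each library. The list summed to 84.3 and 186 FPKM. Nes, the filament protein nestin, was at 7.55 FPKM in ESCs and 146 FPKM in EpiSCs and made up most of that sum in EpiSCs. Without Nes the list summed to less in EpiSCs than in ESCs. Trophoblast markers (6 of 15 compared) summed to 20.4 and 29.6 FPKM, and primitive endoderm markers (7 of 16 compared) to 121 and 147 FPKM. Regulators of primordial germ cells went the other way, from 426 FPKM in ESCs to 45.7 FPKM in EpiSCs, with 7 of 8 compared genes lower. Known pluripotency genes were not taken out of these lists of other cells. The lowest difference among the germ cell regulators, -4.34, was also the lowest among pluripotency genes shared by both states. The 2-cell-like list was at 83.5 and 53.2 FPKM with 1 gene compared. The part of such cells in the differences below was not tested.

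Cufflinks gave 1316 of the compared genes a locus shared with another compared gene. Loci shared only with genes that were not compared are outside that count. Reads of overlapping genes may not be told apart, because the labels do not say whether counting used strand. Among genes named below, Epha1 and Zyx, Gli1, Timp1, Tagln, Tpi1, Pfkp, Cox4i2, Slc7a7, Sycp3, Snrpn, Gnas, Peg3, Mest, Ccnd3, Msh6, Fanci and Gm21704 have a locus shared with another gene, and their values are uncertain to that extent. Over all 10891 genes, 1229 (11.3%) were higher and 1083 (9.94%) lower in EpiSCs, 21.2% in all, and the median difference was -0.03. Differences of 4-fold or more were reached by 352 higher and 408 lower genes, and of 8-fold or more by 101 and 169. The 95% intervals deposited with each value were wide: at 5 to 20 FPKM the median distance from value to upper limit was 75.04% of the value in ESCs and 74.4% in EpiSCs. They were apart for 292 of the higher genes (2.68% of those compared) and 318 of the lower genes (2.92%). A gene near 0 on one side can pass the mean through the other side, and then it differs by construction. With at least 1 FPKM on both sides, 9611 genes were left, of which 732 (7.62%) were higher and 625 (6.50%) lower. Of the 2312 genes called, 2270 were on none of the lists of known pluripotency genes.

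Most of the contrast was found again in the second pair of libraries. Of the 1229 higher genes, 904 (73.6%) were at least 2-fold higher there too, and of the 1083 lower genes 834 (77.0%) were at least 2-fold lower. Over the same 10891 genes the second pair had 10.5% of genes higher and 9.94% lower, so these shares stand well over its background. Those shared genes made up 79.2% of the higher and 77.0% of the lower genes of the second pair. The sign was the same for 98.0% of the higher and 97.0% of the lower genes. Among genes with intervals apart, 272 of 292 and 310 of 318 were called again. The EpiSCs of both pairs may come from 1 line, which the labels do not settle, so a repeat of the derivation was not analysed here.

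**Figure D1:**
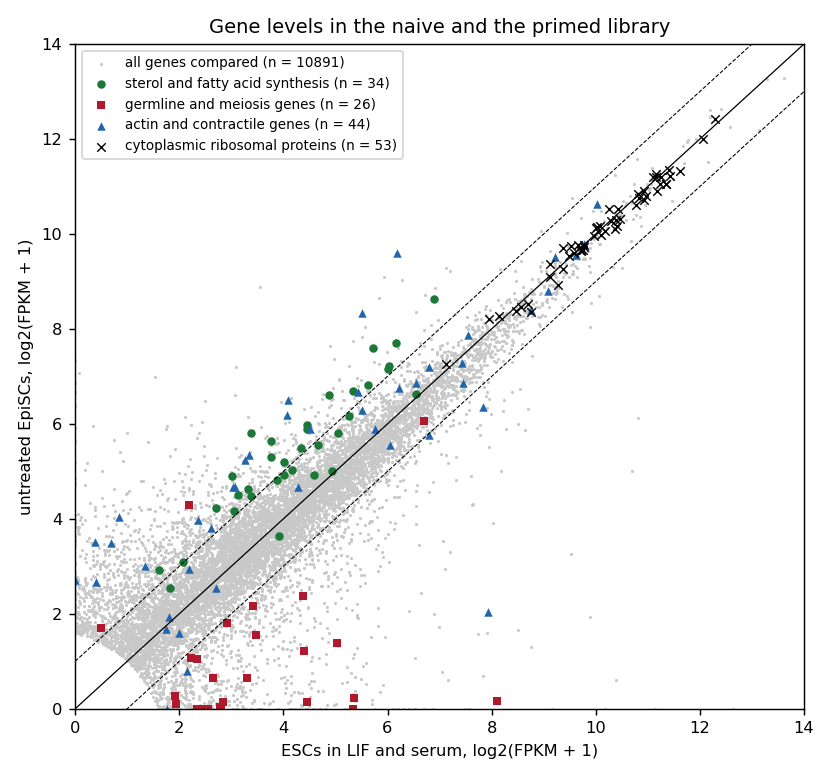
Level of each compared gene in ESCs in LIF and serum (x axis) and in untreated EpiSCs (y axis), both as log2(FPKM + 1), 1 library each. Grey points are all 10891 genes, and 4 lists are marked. The solid line is equality and dashed lines are 2-fold. The 53 ribosomal protein genes all lie between the dashed lines, 23 of 34 sterol and fatty acid genes lie above them, and 23 of 26 germline genes below.

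Outside the known markers, the genes furthest apart were mixed in function. Of genes that passed 10 FPKM in 1 library and had intervals apart, Fgf8, a growth factor of the primitive streak, led the higher ones, followed by Pim2, a serine/threonine kinase, at 1.9 FPKM in ESCs and 125 FPKM in EpiSCs (mm9 chrX:7455432-7460558). Pim2 was at 2.99 FPKM in ESCs in LIF and BMP-4 and at 120.0 and 109 FPKM in EpiSCs after BMP-4, so all 3 EpiSC libraries were far over both ESC libraries. Its relatives went the other way: Pim1 was at 12.9 FPKM in ESCs and 3.65 FPKM in EpiSCs and Pim3 at 50.7 FPKM in ESCs and 14.6 FPKM in EpiSCs. Mmp25, a membrane-anchored metalloproteinase, was at 0.137 FPKM in ESCs and 31.5 FPKM in EpiSCs, and Enpp2, the enzyme autotaxin that makes lysophosphatidic acid, was listed at 0 in ESCs and was at 16 FPKM in EpiSCs. Pls3, an actin-bundling plastin, was at 4.63 FPKM in ESCs and 88 FPKM in EpiSCs.

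Among the lower ones, Rpl10l, a retrogene copy of a ribosomal protein gene known from testis, was first, at 276 FPKM in ESCs and 0.115 FPKM in EpiSCs (mm9 chr12:67384366-67385388). Its X-linked parent gene Rpl10 was at 1369.6 FPKM in ESCs and 1477 FPKM in EpiSCs, although it shares sequence with another gene. Rpl39l, another ribosomal paralog with testis expression, was at 67.7 FPKM in ESCs and listed at 0 in EpiSCs. Spp1, the secreted matrix protein osteopontin, was at 1651 FPKM in ESCs and 31 FPKM in EpiSCs. Fabp3, a fatty acid binding protein, was at 213 FPKM in ESCs and 1.96 FPKM in EpiSCs, although over 25% of its sequence is shared with another gene. Triml2 and Triml1, neighbours of Zfp42 that encode tripartite-motif-like proteins, were at 141 and 0.523 FPKM (difference -6.55) and 40.6 and 0.114 FPKM (difference -5.22). The maternal-effect genes Khdc3 and Ooep, which form an oocyte complex, were at 40.3 and 38.5 FPKM in ESCs and listed at 0 in EpiSCs.

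Across 56 lists of gene functions the contrast was uneven, as the plot of differences by gene list shows. Counts are given as higher and lower of those compared, to be read against 11.3% and 9.94% over all genes, and medians against -0.03. Counts over members with at least 1 FPKM on both sides are to be read against 7.62% and 6.5% of all such genes. They describe these libraries and no list was tested.

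**Figure D2:**
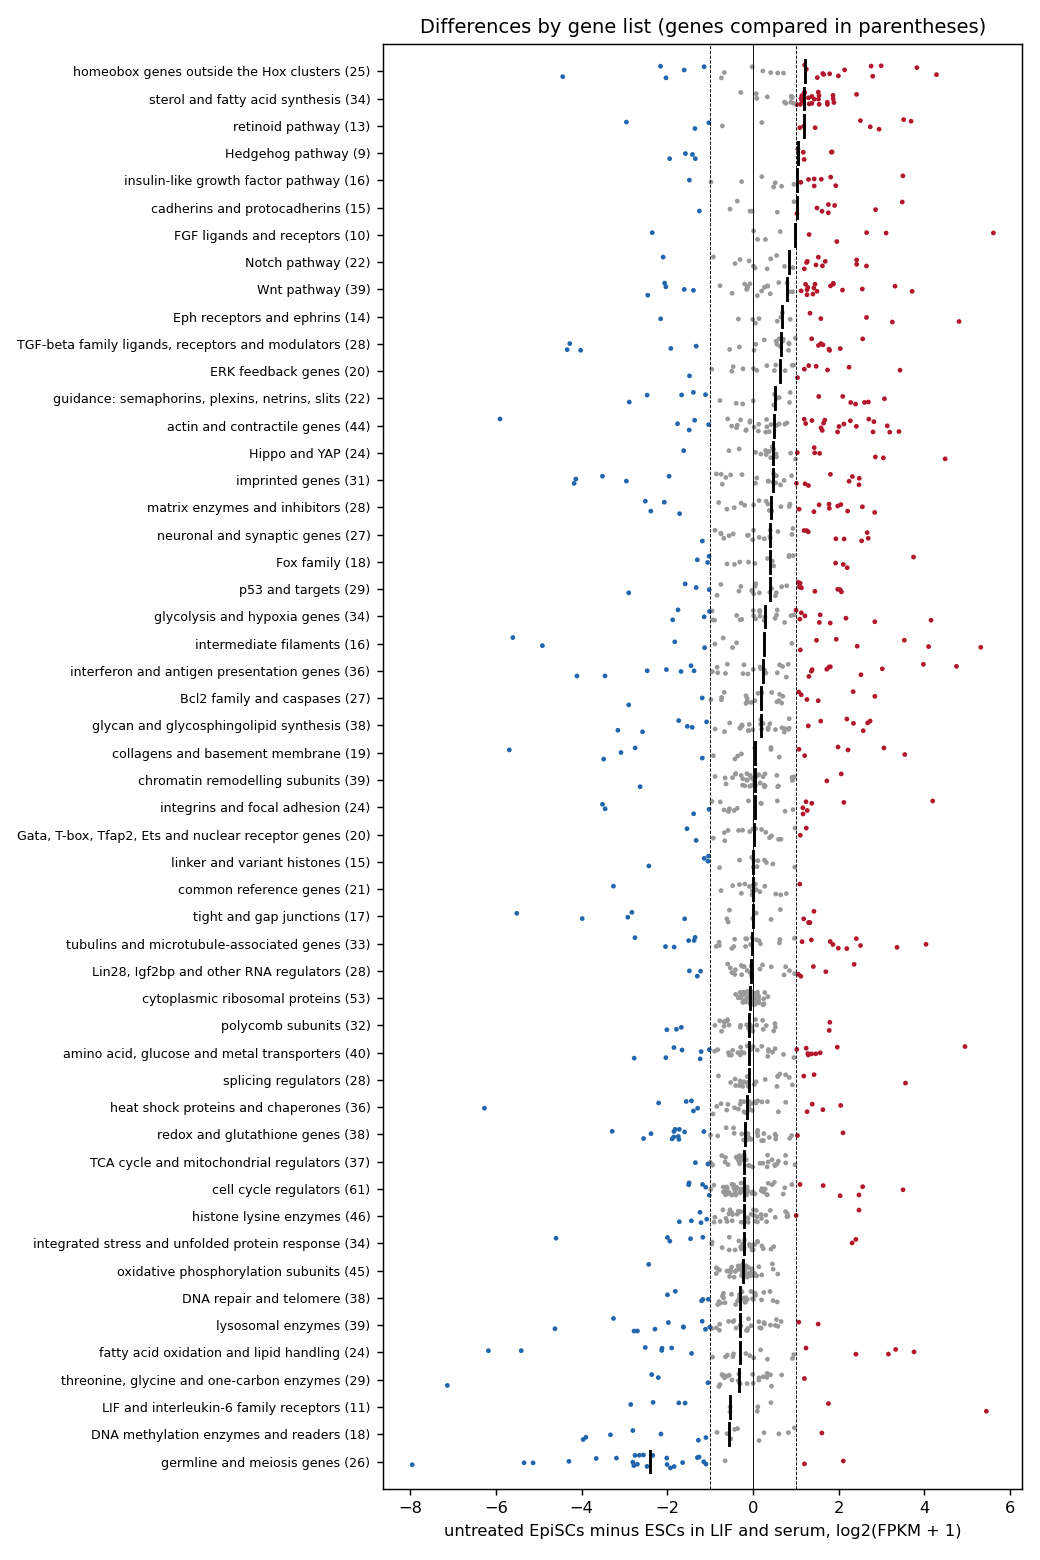
Difference of each compared gene (points) by function list with at least 9 genes compared, ordered by the list's median (black bars), untreated EpiSCs minus ESCs in LIF and serum on the log2(FPKM + 1) scale. Red points are at least 2-fold higher, blue points at least 2-fold lower and grey points in between. Homeobox, sterol and retinoid genes have the highest medians, germline genes the lowest, and ribosomal proteins the narrowest spread.

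Of the FGF ligands and receptors, 5 of 10 compared were higher and 1 lower, with a median of 0.97. Fgf8 was at 0.272 FPKM in ESCs and 61.2 FPKM in EpiSCs, with 0.497 FPKM in ESCs in LIF and BMP-4 and 61.4 and 82 FPKM in EpiSCs after BMP-4. The receptor Fgfr1, which reads FGF2, was at 21.6 FPKM in ESCs and 55 FPKM in EpiSCs, while Fgf17 was the lower one, at 19 FPKM in ESCs and 2.92 FPKM in EpiSCs. With 1 FPKM on both sides, 6 FGF genes were left, 2 of them higher and 1 lower, and the median was 0.37. Genes that respond to ERK and dampen it had 7 higher and 1 lower members of 20 compared. Dusp4, a nuclear phosphatase of ERK, was at 4.21 FPKM in ESCs and 55.3 FPKM in EpiSCs, with intervals of 0.099 to 8.32 and 26.1 to 84.4. The Sprouty genes split: Spry1 was at 3.19 FPKM in ESCs and 7.62 FPKM in EpiSCs and Spry4 at 29.7 FPKM in ESCs and 9.99 FPKM in EpiSCs.

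In the Wnt pathway 16 of 39 genes were higher and 5 lower (median 0.80). Ligands of the streak led: Wnt3 was at 0.0373 FPKM in ESCs and 12.6 FPKM in EpiSCs and Wnt8a at 0.166 FPKM in ESCs and 10.6 FPKM in EpiSCs. Sp5, a transcription factor gene known as a direct Wnt target, was at 0.747 FPKM in ESCs and 9.25 FPKM in EpiSCs. The receptor Fzd2 was at 0.92 FPKM in ESCs and 6.04 FPKM in EpiSCs and Fzd5 at 18.9 FPKM in ESCs and 3.87 FPKM in EpiSCs, so the Frizzled set differed in both directions. Notum, an extracellular enzyme that inactivates Wnt proteins, was at 6.47 FPKM in ESCs and 0.363 FPKM in EpiSCs. Porcn, the acyltransferase that lipidates Wnt ligands, was at 2.66 FPKM in ESCs and 0.397 FPKM in EpiSCs. Many of these genes were near 0 on one side: with 1 FPKM on both, 4 of 23 were higher and 1 lower.

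Notch genes had 10 higher and 1 lower members of 22 compared (median 0.84), but 4 higher and 1 lower of 16 where both sides had at least 1 FPKM (median 0.37). The receptor Notch3 was at 1.74 FPKM in ESCs and 13.7 FPKM in EpiSCs, the ligand Dll3 at 0.278 FPKM in ESCs and 7.02 FPKM in EpiSCs, and the bHLH gene Hes6 at 3.57 FPKM in ESCs and 23.4 FPKM in EpiSCs. The lower gene was Rbpj, the DNA-binding factor that all Notch receptors act through, at 116 FPKM in ESCs and 26.3 FPKM in EpiSCs with intervals of 69.3 to 162 and 11.9 to 40.7. Rbpj was at 150.0 FPKM in ESCs in LIF and BMP-4, and at 26.7 and 23.4 FPKM in the other EpiSC libraries. The named ligand and receptor and the shared effector thus lay on opposite sides.

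Hippo pathway genes had 7 higher and 1 lower members of 24 compared (median 0.48). Amot, a junctional scaffold that holds YAP outside the nucleus, was at 0.437 FPKM in ESCs and 31.2 FPKM in EpiSCs, and its relative Amotl1 at 2.06 FPKM in ESCs and 7.31 FPKM in EpiSCs. Ctgf and Cyr61, matricellular genes known as YAP targets, were at 4.55 and 39.2 FPKM (difference 2.86) and 3.64 and 37.3 FPKM (difference 3.04). Of the TEAD factors that carry YAP on DNA, Tead2 was at 30.1 FPKM in ESCs and 90.5 FPKM in EpiSCs and Tead4 at 4.58 FPKM in ESCs and 0.819 FPKM in EpiSCs.

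Cell guidance genes differed in both directions. Among Eph receptors and ephrins 5 of 14 were higher and 1 lower, which became 1 and 1 of 10 with at least 1 FPKM on both sides. Epha1 was at 0.992 FPKM in ESCs and 54.9 FPKM in EpiSCs and Epha4 at 14.9 FPKM in ESCs and 2.58 FPKM in EpiSCs, on opposite sides and both with intervals apart. The ligand Efnb2 was at 0.898 FPKM in ESCs and 17.1 FPKM in EpiSCs. Of semaphorins, plexins, netrins and slits 7 of 22 were higher and 5 lower, and the intervals were apart for all 7 higher genes and 2 lower ones. At 1 FPKM or more on both sides this was 1 higher and 2 lower of 10. Slit3 was at 0.295 FPKM in ESCs and 9.87 FPKM in EpiSCs and Sema6a, listed at 0 in ESCs, at 5.09 FPKM in EpiSCs. Ntn1, the guidance cue netrin 1, was at 25 FPKM in ESCs and 2.51 FPKM in EpiSCs, and Sema4a at 5.28 FPKM in ESCs and 0.132 FPKM in EpiSCs.

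Of 13 retinoid genes 8 were higher and 3 lower (median 1.19). The binding proteins lay on opposite sides: Crabp2 was at 3.14 FPKM in ESCs and 26.6 FPKM in EpiSCs and Crabp1 at 19 FPKM in ESCs and 1.58 FPKM in EpiSCs. Cyp26a1, which degrades retinoic acid, was listed at 0 in ESCs and was at 10.5 FPKM in EpiSCs. Dhrs3, which turns retinal back to retinol, was likewise listed at 0 in ESCs and was at 4.69 FPKM in EpiSCs. Of the nuclear receptors, Rxrg was at 0.296 FPKM in ESCs and 15.7 FPKM in EpiSCs, while Rarg was at 91.1 FPKM in ESCs and 35 FPKM in EpiSCs and Rara at 13.1 FPKM in ESCs and 5.89 FPKM in EpiSCs. With 1 FPKM on both sides 4 of 9 were higher and 3 lower, and the median was 0.21.

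None of the 9 Hedgehog genes compared lay within 2-fold. Smo, the signal-transducing receptor protein, was at 6.1 FPKM in ESCs and 24.5 FPKM in EpiSCs, with intervals apart, and the coreceptor genes Gas1 and Cdon were at 0.186 and 3.21 FPKM (difference 1.83) and 0.666 and 2.82 FPKM (difference 1.20). Gli3 was at 0.37 FPKM in ESCs and 2.09 FPKM in EpiSCs and Sufu, which restrains Gli proteins, at 6.01 FPKM in ESCs and 13.5 FPKM in EpiSCs. Genes that a Hedgehog signal itself induces were among the lower ones: Gli1 was at 6.41 FPKM in ESCs and 0.925 FPKM in EpiSCs and Ptch1 at 7.02 FPKM in ESCs and 2.16 FPKM in EpiSCs. Gli2, a Gli factor that carries the signal, was at 6.51 FPKM in ESCs and 1.52 FPKM in EpiSCs. In the second pair 4 of the 5 higher and 2 of the 4 lower genes were called again. The median of 1.05 turned to -1.35 over the 5 genes with 1 FPKM on both sides.

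In the insulin-like growth factor pathway 8 of 16 genes were higher and 1 lower (median 1.04). Igfbp3, a secreted binding protein, was at 2.53 FPKM in ESCs and 38.9 FPKM in EpiSCs and Igfbp2 at 70.9 FPKM in ESCs and 216 FPKM in EpiSCs, both with intervals apart. The glypican Gpc3, a cell-surface proteoglycan that restrains growth, was at 4.9 FPKM in ESCs and 21.5 FPKM in EpiSCs. Of the RNA-binding Igf2bp family, Igf2bp2 was at 33.6 FPKM in ESCs and 11.4 FPKM in EpiSCs and Igf2bp3 at 4.01 FPKM in ESCs and 9.87 FPKM in EpiSCs. Igf2bp3 lay the other way in the second pair: it was at 31 FPKM in ESCs in LIF and BMP-4, over the 9.81 FPKM of EpiSCs after 1.5 h of BMP-4. The TGF-beta family, with known markers left out, held 8 higher and 5 lower members of 28 (median 0.67), and receptors and targets of the LIF and interleukin-6 family 2 higher and 4 lower of 11 (median -0.53).

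Among transcription factors, homeobox genes outside the Hox clusters, with known markers left out, had 13 higher and 5 lower members of 25 compared (median 1.21), and 40 listed genes were under the mean limit. Where both sides had at least 1 FPKM, 4 of 11 were higher and 2 lower, with a median of 0.58. Gsc, a factor of the organizer, was at 0.9 FPKM in ESCs and 36 FPKM in EpiSCs. Lhx1, another organizer factor, was listed at 0 in ESCs and was at 13.2 FPKM in EpiSCs. The TALE cofactor gene Pbx3 was at 1.71 FPKM in ESCs and 17.4 FPKM in EpiSCs. In the other direction Nkx6-3 was at 20.7 FPKM in ESCs and listed at 0 in EpiSCs, with 0.765 FPKM in ESCs in LIF and BMP-4. Of the lower homeobox genes 1 of 5 was called again in the second pair, against 11 of 13 higher ones. Sox11, a neural and mesenchymal factor, was at 1.28 FPKM in ESCs and 9.52 FPKM in EpiSCs and led the Sox family, in which 2 of 6 were higher. In the Fox family 4 of 18 were higher and 3 lower, and with at least 1 FPKM on both sides 0 and 2 of 12. The GATA, T-box, Tfap2, Ets and nuclear receptor genes left after removing known markers lay mostly within 2-fold, 16 of 20.

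Factors of the epithelial-mesenchymal transition gave no single direction, with 2 of 7 higher and 3 lower. Twist1, a mesenchymal bHLH factor, was at 1.99 FPKM in ESCs and 21.6 FPKM in EpiSCs, and Esrp1, an epithelial splicing regulator, at 0.664 FPKM in ESCs and 18.6 FPKM in EpiSCs, both with intervals apart. Esrp1 thus made up 22.5% of the summed Esrp1 and Esrp2 level in ESCs and 82.9% in EpiSCs. Grhl3 and Elf3, factors of surface epithelia, were at 7.01 and 2.41 FPKM (difference -1.23) and 11.5 and 3.29 FPKM (difference -1.54).

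Several cadherins were higher beside a level E-cadherin. Of 15 genes on the list of cadherins, protocadherins and related adhesion genes 8 were higher and 1 lower (median 1.03). All 9 were called again in the second pair, where the median was 1.40. Several of these genes were near 0 on one side: at 1 FPKM or more on both, 3 of 10 were higher and 1 lower, and the median was 0.27. Cdh1, E-cadherin, lay within 2-fold, at 90.7 FPKM in ESCs and 135 FPKM in EpiSCs. Cdh2, N-cadherin, was at 0.856 FPKM in ESCs and 19.8 FPKM in EpiSCs, so that Cdh1 made up 99.1% of the sum of both in ESCs and 87.2% in EpiSCs. Pcdh1 was at 2.17 FPKM in ESCs and 22.1 FPKM in EpiSCs and the epithelial adhesion gene Epcam at 20.1 FPKM in ESCs and 78.1 FPKM in EpiSCs. The lower gene was not a cadherin: Jup, plakoglobin, was at 26.6 FPKM in ESCs and 10.6 FPKM in EpiSCs.

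Junction genes lay on both sides. Of 17 tight and gap junction genes 5 were higher and 5 lower (median -0.01). Gja1, connexin 43, was at 56.2 FPKM in ESCs and 152 FPKM in EpiSCs, while Gjb5, a beta connexin, was at 15.9 FPKM in ESCs and 1.38 FPKM in EpiSCs. Jam2, a junctional adhesion molecule, was at 51.2 FPKM in ESCs and 0.143 FPKM in EpiSCs and Jam3 at 4.5 FPKM in ESCs and 12.7 FPKM in EpiSCs. Cldn4, a claudin, was at 16.8 FPKM in ESCs and 1.35 FPKM in EpiSCs. Desmosome genes also lay on both sides, with 3 of 6 higher and 2 lower: Dsp, desmoplakin, was at 1.09 FPKM in ESCs and 17.4 FPKM in EpiSCs and Dsg2, a desmosomal cadherin, at 26.6 FPKM in ESCs and 3.67 FPKM in EpiSCs. Perp, a membrane protein of desmosomes, was at 15.3 FPKM in ESCs and 63.4 FPKM in EpiSCs.

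Integrins and focal adhesion genes had 7 higher and 4 lower members of 24 compared (median 0.04). Zyx, zyxin, which marks tensed focal adhesions, was at 2.4 FPKM in ESCs and 61.4 FPKM in EpiSCs (its locus, mm9 chr6:42299827-42330557, is given with that of the neighbour Epha1), with intervals of 0 to 5.96 and 15.5 to 107, and at 1.56 FPKM in ESCs in LIF and BMP-4. Tns3, a tensin of adhesions, was at 42.1 FPKM in ESCs and 2.78 FPKM in EpiSCs, and Itgb7, an integrin chain best known from lymphocytes, at 15.8 FPKM in ESCs and 0.533 FPKM in EpiSCs. Parvb, an integrin adaptor not on the list but among the lowest of all genes, was at 38.3 FPKM in ESCs and 0.134 FPKM in EpiSCs.

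Genes of the secreted matrix differed in both directions between the libraries. Among collagens and basement membrane genes 6 of 19 were higher and 5 lower, and intervals were apart for 4 in each direction. At 1 FPKM or more on both sides 3 of 15 were higher and 4 lower. Lower were Lama1, the laminin alpha chain of early basement membranes, at 15.3 FPKM in ESCs and 0.454 FPKM in EpiSCs, the linker Nid1 at 35.9 FPKM in ESCs and 3.36 FPKM in EpiSCs and fibronectin, Fn1, at 30.7 FPKM in ESCs and 3.71 FPKM in EpiSCs. Higher were the proteoglycan Vcan at 1.05 FPKM in ESCs and 22.9 FPKM in EpiSCs, Thbs1 at 0.155 FPKM in ESCs and 8.61 FPKM in EpiSCs and the fibrillar collagens Col2a1 and Col5a1 at 0.207 and 4.62 FPKM (difference 2.22) and 0.768 and 6.01 FPKM (difference 1.99). Matrix enzymes and inhibitors had 10 higher and 4 lower members of 28 compared, and 4 higher and 2 lower of 19 with at least 1 FPKM on both sides. Plod2 and P4ha1, which hydroxylate collagen, were at 11.6 and 51.2 FPKM (difference 2.05) and 7.75 and 29.1 FPKM (difference 1.78). Serpine2, a protease inhibitor, was at 3.29 FPKM in ESCs and 29.8 FPKM in EpiSCs and Timp1, an inhibitor of metalloproteinases, at 28.2 FPKM in ESCs and 5.94 FPKM in EpiSCs.

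Of 44 actin and contractile genes 18 were higher, with 5 lower and a median of 0.48, and 17 and 4 of them were called again in the second pair. With 1 FPKM on both sides it was 13 higher and 3 lower of 37. Tpm1, a tropomyosin that stabilises actin filaments, was at 71.9 FPKM in ESCs and 773 FPKM in EpiSCs, with intervals of 28.2 to 115 and 456 to 1089. It was at 66.7 FPKM in ESCs in LIF and BMP-4 and at 765 and 804 FPKM in EpiSCs after BMP-4, so the ESC and EpiSC libraries did not overlap. Tpm4 was at 44.6 FPKM in ESCs and 322 FPKM in EpiSCs and Cnn2, a calponin, at 16 FPKM in ESCs and 89.6 FPKM in EpiSCs. Vcl, vinculin, which links actin to junctions and adhesions, was at 15.8 FPKM in ESCs and 72 FPKM in EpiSCs. The smooth muscle genes Tagln and Myl9 were at 0.788 FPKM in ESCs and 15.3 FPKM in EpiSCs and at 0.621 FPKM in ESCs and 10.3 FPKM in EpiSCs, against 186 and 232 FPKM (difference 0.32) for the broadly expressed relative Tagln2. Srf itself, the transcription factor that reads actin dynamics, was at 4.11 FPKM in ESCs and 14.7 FPKM in EpiSCs. Mylpf, a fast muscle light chain, was among the 5 lower genes, at 244 FPKM in ESCs and 3.1 FPKM in EpiSCs.

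Promoters of this group are shown because SRF binds the CArG box, a short A/T-rich motif, and many members were higher together. The box, searched on both strands in the 250 bases before each start in a RefSeq table of build GRCm38.p6, stood in 8 of 39 contractile genes with a promoter there (of 44 compared): 5 of 17 higher, 0 of 4 lower and 3 of 18 within 2-fold. Among compared genes with a promoter the share was 1.34%, and it was 1.47% of all promoters in the table. The 5 higher genes follow, with 1 box each in capitals, and the promoter of Srf holds 2. For Vcl, at chr14:20929148-20929210, it began 227 bases before the start, for Cnn2, at chr10:79988514-79988583, 56 bases, for Srf, at chr17:46556205-46556274, 82 bases, for Myl9, at chr2:156775273-156775342, 161 bases, and for Fhl2, at chr1:43163962-43164022, 31 bases.
Vcl: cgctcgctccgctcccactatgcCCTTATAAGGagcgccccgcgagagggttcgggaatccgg
Cnn2: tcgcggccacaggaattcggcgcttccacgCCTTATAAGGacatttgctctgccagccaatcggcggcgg
Srf: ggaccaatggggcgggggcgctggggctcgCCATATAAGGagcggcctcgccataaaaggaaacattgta
Myl9: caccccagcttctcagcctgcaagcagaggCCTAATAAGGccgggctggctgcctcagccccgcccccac
Fhl2: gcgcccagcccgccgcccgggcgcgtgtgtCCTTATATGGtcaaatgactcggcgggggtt
A match is a description of these letters, and binding was not measured. Fhl2, a LIM-domain cofactor, was listed at 0 in ESCs and was at 5.52 FPKM in EpiSCs.

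Intermediate filament genes lay on both sides, with 7 of 16 higher and 4 lower. The simple-epithelium keratin Krt18 was at 7.38 FPKM in ESCs and 96 FPKM in EpiSCs and its partner Krt8 at 28.4 FPKM in ESCs and 81 FPKM in EpiSCs, although Krt8 shares sequence with another gene. Vim, vimentin, was at 119 FPKM in ESCs and 461 FPKM in EpiSCs. Krt42 and Krt17, type I keratins, were at 51.1 and 0.0702 FPKM (difference -5.61) and 31.3 and 0.0721 FPKM (difference -4.91). Nefl, a neurofilament chain, was at 10.8 FPKM in ESCs and 469 FPKM in EpiSCs. Tubulin and microtubule genes had 10 higher and 6 lower members of 33 compared. Dclk1, a microtubule-binding kinase, was at 0.0373 FPKM in ESCs and 16.1 FPKM in EpiSCs, the motor Kif1a at 0.352 FPKM in ESCs and 12.9 FPKM in EpiSCs and Tubb6 at 14.6 FPKM in ESCs and 87.7 FPKM in EpiSCs. Mapt, tau, was at 6.55 FPKM in ESCs and 0.118 FPKM in EpiSCs and Stmn3 at 15.2 FPKM in ESCs and 2.94 FPKM in EpiSCs.

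Neuronal and synaptic genes, 27 of 64 compared, were higher in 8 cases and lower in 1 (median 0.40), and all 9 were called again in the second pair. Glutamate receptor genes were among them: Gria4 was at 0.261 FPKM in ESCs and 7.14 FPKM in EpiSCs and Gria3 at 0.261 FPKM in ESCs and 4.51 FPKM in EpiSCs. The neuropeptide precursor Vgf was at 0.139 FPKM in ESCs and 5.61 FPKM in EpiSCs. Kcnk1, a potassium channel, was at 2.44 FPKM in ESCs and 20.8 FPKM in EpiSCs. Some of the higher genes were near 0 in ESCs: with at least 1 FPKM on both sides 5 of 20 were higher and 1 lower, with a median of 0.21.

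Lipid synthesis lay on 1 side. Of 34 sterol and fatty acid synthesis genes 23 were higher and 0 lower in EpiSCs, with a median of 1.19, 33 of 34 lay over 0, and all 34 were over 1 FPKM on both sides. The listed gene left out, Hmgcs1, is listed at 0 in all 5 libraries, which may be a failed estimate. Scd2, a fatty acid desaturase, was at 51.7 FPKM in ESCs and 192 FPKM in EpiSCs (mm9 chr19:44368166-44381352), with intervals of 27.7 to 75.8 and 120.3 to 263. Fads2, which desaturates polyunsaturated fatty acids, was at 9.44 FPKM in ESCs and 54.8 FPKM in EpiSCs. Fdps and Idi1, which make the isoprenoid precursors of cholesterol, were at 117 and 394 FPKM (difference 1.74) and 70.5 and 207 FPKM (difference 1.54). Nsdhl and Dhcr7, late steps of cholesterol synthesis, were at 7.08 and 28.9 FPKM (difference 1.89) and 5.54 and 17.9 FPKM (difference 1.53).

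This list did not behave the same in the second pair, where both cultures were in serum-free medium: 2 of the 23 were called again, and the median was 0.33. The ESC libraries themselves differed in the list, with 12 genes higher and 0 lower in LIF and BMP-4 than in LIF and serum (median 0.85), against 2.09% of all compared genes higher and 1.41% lower there. Untreated EpiSCs against ESCs in LIF and BMP-4 gave 4 higher and 0 lower (median 0.33), against 10.9% and 9.78% of all compared genes. These comparisons share libraries and are given side by side. For Scd2 the 5 levels were 51.7 FPKM in ESCs in LIF and serum, 144 in LIF and BMP-4, and 192, 194 and 224 in untreated, 1.5 h and 24 h EpiSCs. For Dhcr7 they were 5.54, 17.2, 17.9, 16.8 and 17.1 FPKM in the same order. In both genes the ESC library without serum stood nearer to the EpiSCs than to the ESC library with serum. The part of serum was not tested, since LIF with BMP-4 and basal medium came together.

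Glycolysis and hypoxia genes also differed between the pairs. Against ESCs in LIF and serum 10 of 34 were higher and 4 lower (median 0.27), but 1 of the 10 was called again in the second pair, against 4 of the 4 lower, and there the median was 0.06 with 8 lower. ESCs in LIF and BMP-4 had 8 of the 34 higher and 0 lower than ESCs in serum (median 0.46). Bnip3, a mitophagy receptor induced in hypoxia, was at 1.19 FPKM in ESCs in serum, 22.7 in LIF and BMP-4 and 14.8 in untreated EpiSCs. Tpi1, triose phosphate isomerase, was at 138, 416 and 624 FPKM. The gene called in both pairs was Slc16a3, which exports lactate, at 2.35 and 15.9 FPKM in the ESC libraries and 58.7, 62.9 and 53.2 FPKM in the EpiSC libraries. The lower genes were called again: Hk1, a hexokinase, was at 21.4 and 16 FPKM in ESCs and 5.67, 6.47 and 5.35 FPKM in EpiSCs, and Pfkp, a phosphofructokinase, at 33.6 and 47.8 against 8.45, 8.29 and 7.86 FPKM. The liver-type isoform Pfkl was at 41.9 FPKM in ESCs in serum and 125 FPKM in untreated EpiSCs. It was among the higher genes that were not called again in the second pair. The glucose transporters Slc2a1 and Slc2a3 lay within 2-fold, at 90 and 73 FPKM (difference -0.30) and 177 and 94.6 FPKM (difference -0.89).

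**Figure D3:**
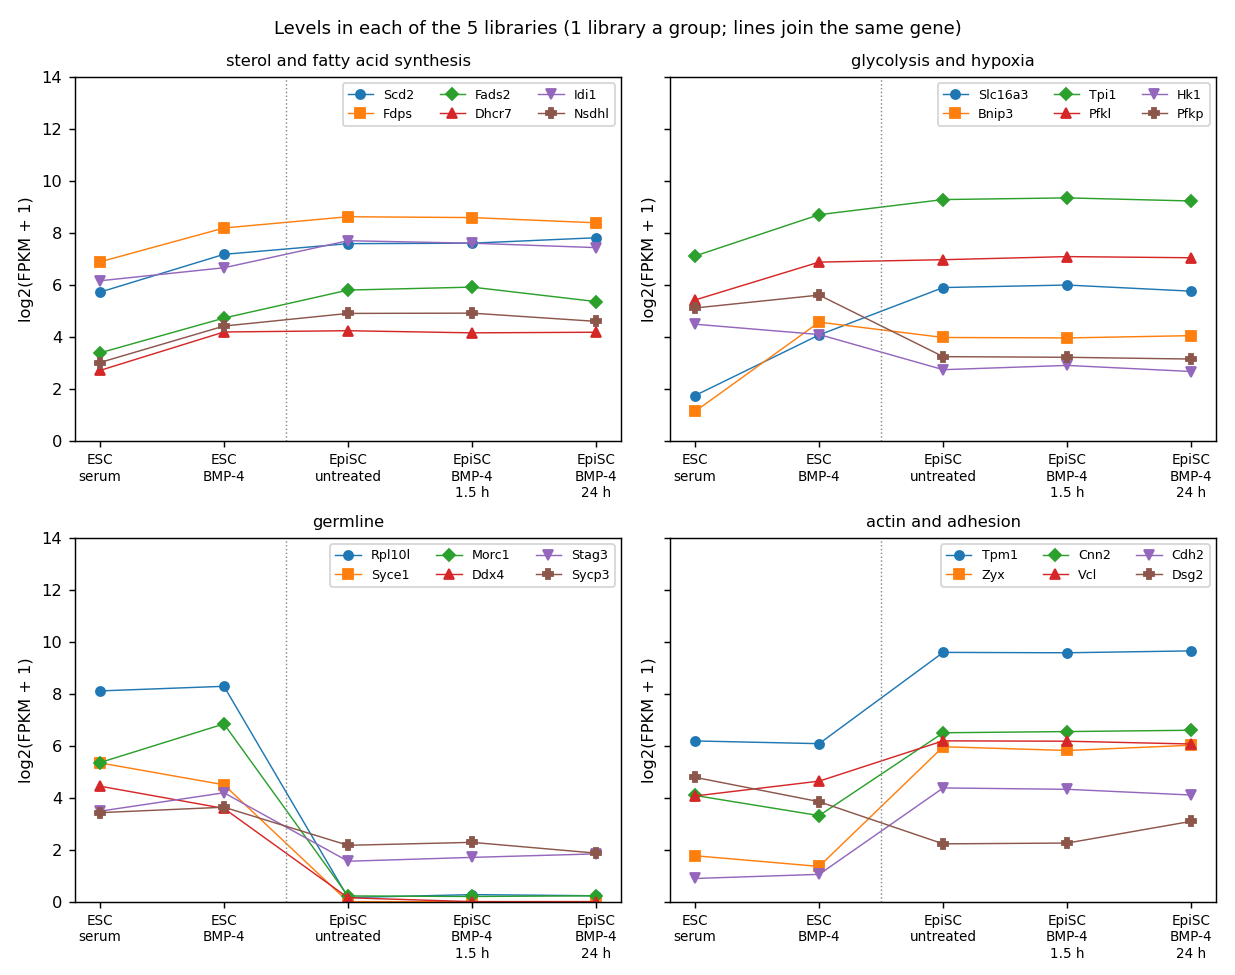
Level in each of the 5 libraries (x axis) as log2(FPKM + 1) (y axis) for 24 genes of 4 groups, with 1 point per library and the dotted line between ESC and EpiSC libraries. Germline and actin or adhesion genes step at the dotted line. The sterol genes, Bnip3, Tpi1 and Slc16a3 already stand higher in ESCs in LIF and BMP-4 than in ESCs in serum. Slc16a3, Hk1 and Pfkp differ between EpiSCs and both ESC libraries.

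Genes of mitochondrial respiration lay almost all within 2-fold. Of 45 nuclear-encoded oxidative phosphorylation subunits 44 lay within 2-fold and 1 was lower, with a median of -0.22, and the differences ran from -2.43 to 0.58. Small as they were, 37 of the differences lay under 0 and 8 over it, and the median in the second pair was -0.21. The lower one was Cox4i2, a hypoxia-linked isoform, at 4.4 FPKM in ESCs and listed at 0 in EpiSCs. Of 37 genes of the TCA cycle and mitochondrial regulation, 35 lay within 2-fold and 2 were lower. Idh2, the mitochondrial isocitrate dehydrogenase, was at 31.4 FPKM in ESCs and 11.8 FPKM in EpiSCs. Among enzymes of threonine, glycine and one-carbon metabolism 4 of 29 were lower and 1 higher. Tdh, threonine dehydrogenase, was at 226 FPKM in ESCs and 0.618 FPKM in EpiSCs. Amt, of the glycine cleavage system, was at 60.9 FPKM in ESCs and 11 FPKM in EpiSCs and Cth, which makes cysteine, at 77.8 FPKM in ESCs and 16 FPKM in EpiSCs.

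Lipid handling outside synthesis went in both directions, with 5 of 24 higher and 7 lower, and all 12 were called again in the second pair. The fatty acid binding proteins lay on opposite sides: Fabp5 was at 60.1 FPKM in ESCs and 546 FPKM in EpiSCs while Fabp3, above, was lower. Apoe, an apolipoprotein, was at 363 FPKM in ESCs and 62.6 FPKM in EpiSCs and Apoc1 at 59.4 FPKM in ESCs and 0.421 FPKM in EpiSCs. Cpt1a, the gate of mitochondrial fatty acid import, was at 11.3 FPKM in ESCs and 2.29 FPKM in EpiSCs, whereas Cpt2, the enzyme after it, was at 3.34 FPKM in ESCs and 9.26 FPKM in EpiSCs. Acadl, a long-chain acyl-CoA dehydrogenase, was at 7.55 FPKM in ESCs and 44.2 FPKM in EpiSCs and Alox15, a lipoxygenase, at 0.0984 FPKM in ESCs and 13.9 FPKM in EpiSCs.

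Redox and detoxification genes were mostly lower where they differed, 12 of 38 against 2 higher (median -0.18), and 10 of the 12 were called again. Gsta4, a glutathione transferase, was at 374 FPKM in ESCs and 106 FPKM in EpiSCs, Nqo1, a quinone reductase, at 32.8 FPKM in ESCs and 4.76 FPKM in EpiSCs and Sod2, the mitochondrial superoxide dismutase, at 48.9 FPKM in ESCs and 14.1 FPKM in EpiSCs. The metal-binding metallothioneins Mt1 and Mt2 were at 93.9 and 25.4 FPKM (difference -1.85) and 310.0 and 58.8 FPKM (difference -2.38). Transporters of amino acids, glucose and metals had 9 higher and 7 lower members of 40 compared, but 3 higher and 7 lower of 33 with at least 1 FPKM on both sides. Folr1, a folate receptor, was at 27.5 FPKM in ESCs and 3.16 FPKM in EpiSCs, and Slc7a1, a carrier of cationic amino acids, at 8.69 FPKM in ESCs and 2.07 FPKM in EpiSCs, while Slc7a7, from the same substrate class, was at 17.2 FPKM in ESCs and 46 FPKM in EpiSCs. Fth1, the ferritin heavy chain, was at 1285 FPKM in ESCs and 633 FPKM in EpiSCs.

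Lysosomal genes had 11 lower and 2 higher members of 39 compared (median -0.30). In the second pair 10 of the 11 were called again and 14 of the 39 were lower, with a median of -0.64. Manba, beta-mannosidase, was at 45 FPKM in ESCs and 0.867 FPKM in EpiSCs and Gusb, beta-glucuronidase, at 9.75 FPKM in ESCs and 0.125 FPKM in EpiSCs. Hexa, a chain of beta-hexosaminidase, was at 17.5 FPKM in ESCs and 1.7 FPKM in EpiSCs. Tfeb and Mitf, related factors of which Tfeb is known to drive lysosomal genes, were at 17.5 and 1.86 FPKM (difference -2.70) and 5.98 and 0.43 FPKM (difference -2.29). With 1 FPKM on both sides 7 of 35 were lower and 2 higher, and the median was -0.15. Gusb is also a common reference gene; of 21 such genes compared 19 lay within 2-fold.

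Enzymes that build cell-surface sugars lay on both sides. Of 38 genes of glycan and glycosphingolipid synthesis 7 were higher and 6 lower, and with at least 1 FPKM on both sides 3 and 5 of 30. Fut8, the core fucosyltransferase, was at 96.3 FPKM in ESCs and 9.94 FPKM in EpiSCs and Gcnt2, which branches the I antigen, at 13.9 FPKM in ESCs and 1.5 FPKM in EpiSCs. St8sia1, the GD3 synthase, was at 2.68 FPKM in ESCs and 0.107 FPKM in EpiSCs and St6gal1, a sialyltransferase, at 0.581 FPKM in ESCs and 9.11 FPKM in EpiSCs. Podxl, a sialomucin of apical membranes, was at 3.77 FPKM in ESCs and 30.8 FPKM in EpiSCs, and Has2, a hyaluronan synthase, at 0.0538 FPKM in ESCs and 3.82 FPKM in EpiSCs.

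Germline and meiosis genes were largely lower, 23 of 26 lower and 2 higher with a median of -2.41, against 9.94% of all genes lower. Of 65 listed genes 64 were in the table and 38 were not compared, so the compared genes are those with a level in at least 1 library. With 1 FPKM on both sides 8 of 10 were lower and 1 higher (median -1.28). All 25 called genes were called again in the second pair (median -2.52). Ddx4, the Vasa RNA helicase of germ cells, was at 20.8 and 11 FPKM in the ESC libraries and 0.11 FPKM in untreated EpiSCs, and was listed at 0 in both other EpiSC libraries. Syce1, of the synaptonemal complex that pairs chromosomes in meiosis, was at 39.6 and 21.6 FPKM in ESCs and listed at 0 in untreated EpiSCs. Morc1, which silences transposons in male germ cells, was at 39.9 FPKM in ESCs and 0.165 FPKM in EpiSCs, and Rnf17, a tudor protein, at 20.1 FPKM in ESCs and 1.31 FPKM in EpiSCs. Piwil2, a PIWI protein that uses piRNAs, was at 6.14 FPKM in ESCs and 0.0998 FPKM in EpiSCs. Stag3 and Sycp3, of the meiotic chromosome axis, were at 10.2 and 1.94 FPKM (difference -1.93) and 9.75 and 3.5 FPKM (difference -1.26). Tdrkh, a tudor protein of the piRNA pathway, went the other way at 3.56 FPKM in ESCs and 18.7 FPKM in EpiSCs, as did Tdrd5 at 0.406 FPKM in ESCs and 2.24 FPKM in EpiSCs.

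Promoters of germline genes are shown because many are known to hold an E-box, CACGTG, the site of MAX-containing repressors and of other bHLH factors. It was found in 9 of 21 germline genes with a promoter in the table (of 26 compared), 8 of the 18 lower ones among them and 0 of 2 higher. Among all compared genes with a promoter the share was 10.4%, and it was 6.02% of all promoters. The motif is a palindrome, so both strands give the same sites. One site each is in capitals below for 5 lower genes, at chr13:112652311-112652369 for Ddx4, chr3:95559590-95559655 for Hormad1, chr5:138280309-138280374 for Stag3, chr6:49395454-49395519 for Stk31 and chr3:102936159-102936224 for Sycp1, all GRCm38.p6 from RefSeq.
Ddx4: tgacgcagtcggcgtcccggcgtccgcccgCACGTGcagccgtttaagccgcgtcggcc
Hormad1: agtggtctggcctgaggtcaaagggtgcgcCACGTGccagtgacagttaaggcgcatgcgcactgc
Stag3: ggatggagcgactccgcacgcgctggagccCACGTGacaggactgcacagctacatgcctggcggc
Stk31: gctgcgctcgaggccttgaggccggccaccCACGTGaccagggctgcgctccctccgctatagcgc
Sycp1: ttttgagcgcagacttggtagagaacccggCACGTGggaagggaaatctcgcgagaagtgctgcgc
Hormad1 and Stk31, a meiotic axis protein and a germline tudor kinase, were at 5.98 and 5.87 FPKM in ESCs and both listed at 0 in EpiSCs, and Hormad1 shares sequence with another gene. Sycp1 was at 2.76 FPKM in ESCs and 0.204 FPKM in EpiSCs.

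Chromatin complexes were mostly level, with a few subunits lower. Of 32 polycomb subunits 27 lay within 2-fold, 2 were higher and 3 lower, the 3 with intervals apart and called again in the second pair. Eed, the core subunit of polycomb repressive complex 2 that reads its own mark, was at 218 FPKM in ESCs and 53.4 FPKM in EpiSCs, with intervals of 124 to 312 and 23.8 to 82.9. Its accessory subunits Mtf2 and Jarid2, which bring the complex to CpG islands, were at 139 and 39.6 FPKM (difference -1.79) and 69.1 and 21 FPKM (difference -1.67). The catalytic Ezh2 and the subunit Suz12 lay within 2-fold, at 137 and 85.8 FPKM (difference -0.67) and 96.4 and 62.9 FPKM (difference -0.61). Among the PRC1 chromobox genes, Cbx7 and Cbx2 lay within 2-fold at 31.4 and 17.9 FPKM (difference -0.78) and 4.49 and 4.23 FPKM (difference -0.07). Phc2, a polyhomeotic protein, was at 4.69 FPKM in ESCs and 18.5 FPKM in EpiSCs.

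Of 46 histone lysine enzymes 39 lay within 2-fold, 2 were higher and 5 lower. Kdm3a, a demethylase of lysine 9 of histone H3, was at 71.8 FPKM in ESCs and 21.1 FPKM in EpiSCs, and Setd7, a methyltransferase, at 0.926 FPKM in ESCs and 9.71 FPKM in EpiSCs. Ash2l and Wdr5, core subunits of the complexes that methylate lysine 4, were at 247 and 90.6 FPKM (difference -1.44) and 112 and 47.6 FPKM (difference -1.21). Chromatin remodelling subunits lay within 2-fold in 36 of 39 cases. The ATPase Smarca2 was at 0.371 FPKM in ESCs and 4.72 FPKM in EpiSCs and the subunit Smarcd3 at 7.52 FPKM in ESCs and 0.372 FPKM in EpiSCs. Among enzymes and readers of DNA methylation with known markers removed, 7 of 18 were lower and 1 higher. Zfp57, which guards methylation at imprinted loci, was at 199.6 FPKM in ESCs and 19 FPKM in EpiSCs, and Mbd1, a reader of methylated CpG, at 6.78 FPKM in ESCs and 0.114 FPKM in EpiSCs.

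Imprinted genes had 8 higher and 5 lower members of 31 compared (median 0.47). Higher were the growth inhibitor Cdkn1c at 46.5 FPKM in ESCs and 263 FPKM in EpiSCs, Snrpn at 44.6 FPKM in ESCs and 227 FPKM in EpiSCs, Gnas at 92.9 FPKM in ESCs and 328 FPKM in EpiSCs and the zinc-finger gene Peg3 at 1.88 FPKM in ESCs and 15.1 FPKM in EpiSCs. Lower were Peg10, a retrotransposon-derived gene, at 16.6 FPKM in ESCs and listed at 0 in EpiSCs, Mest at 11.4 FPKM in ESCs and 0.0862 FPKM in EpiSCs and Cobl at 50.4 FPKM in ESCs and 1.85 FPKM in EpiSCs. Mest was at 6.07 FPKM in ESCs in LIF and BMP-4, listed at 0 in EpiSCs after 1.5 h of BMP-4 and at 0.0317 FPKM after 24 h. Levels do not tell which parental allele was read.

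The cell cycle machinery lay within 2-fold in 50 of 61 genes, with 6 higher and 5 lower. Mxd4, a MAX partner that opposes MYC, was at 1.45 FPKM in ESCs and 26.8 FPKM in EpiSCs, and Cdkn1a, the p21 inhibitor, at 7.36 FPKM in ESCs and 33.3 FPKM in EpiSCs. Ccnd3, a D-type cyclin, was at 77.9 FPKM in ESCs and 27.1 FPKM in EpiSCs, so that Ccnd1 made up 33.8% of the sum of both in ESCs and 54.3% in EpiSCs. Genes of DNA repair and telomeres had 5 of 38 lower and 0 higher (median -0.29). Msh6, of mismatch repair, was at 219.5 FPKM in ESCs and 61.8 FPKM in EpiSCs with intervals apart, and Fanci, of crosslink repair, at 36.1 FPKM in ESCs and 8.3 FPKM in EpiSCs. The p53 targets had 9 higher and 4 lower members of 29 compared (median 0.39). Plk2 was at 11.9 FPKM in ESCs and 53 FPKM in EpiSCs and Ccng1 at 97 FPKM in ESCs and 206 FPKM in EpiSCs, but the apoptosis gene Pmaip1, Noxa, was at 7.32 FPKM in ESCs and 0.115 FPKM in EpiSCs. Of 27 genes of the Bcl2 family and caspases 6 were higher and 2 lower, of which 2 and 1 were called again in the second pair.

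Stress genes also split. In the integrated stress and unfolded protein response 5 of 34 were lower and 2 higher. Asns, asparagine synthetase, was at 142 FPKM in ESCs and 34.9 FPKM in EpiSCs, and Trib3 at 12.4 FPKM in ESCs and 2.5 FPKM in EpiSCs, both targets of ATF4, while Ddit4, an inhibitor of mTORC1, was at 16.6 FPKM in ESCs and 92.1 FPKM in EpiSCs. ESCs in LIF and BMP-4 had 5 of the 34 lower and 1 higher than ESCs in serum, and Asns was at 82.8 FPKM there. Heat shock genes had 4 higher and 6 lower members of 36 compared. Hspb1, a small heat shock protein whose gene shares sequence with another, was at 733 FPKM in ESCs and 8.53 FPKM in EpiSCs. Bag3, a co-chaperone of HSP70, was at 9.28 FPKM in ESCs and 41.5 FPKM in EpiSCs.

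Interferon and antigen presentation genes had 10 higher and 7 lower members of 36 compared, with intervals apart for 5 and 4. With at least 1 FPKM on both sides 6 of 30 were higher and 6 lower. In the second pair 8 of the 36 were higher and 11 lower. Gbp2, a guanylate-binding GTPase induced by interferon, and Isg15, a ubiquitin-like modifier, were listed at 0 in ESCs and were at 25.9 and 14.8 FPKM in EpiSCs. In ESCs in LIF and BMP-4 Gbp2 was listed at 0 too and Isg15 was at 0.189 FPKM. Tap1, a peptide transporter of antigen presentation, was at 0.449 FPKM in ESCs and 7.32 FPKM in EpiSCs, and Bst2, tetherin, at 29.8 FPKM in ESCs and 107 FPKM in EpiSCs. The other side held Ifitm3, which blocks virus entry, at 260.1 FPKM in ESCs and 14.1 FPKM in EpiSCs, and Ddx58, the RNA sensor RIG-I, at 28 FPKM in ESCs and 1.65 FPKM in EpiSCs. Icam1, an adhesion molecule, was at 38 FPKM in ESCs and 6.05 FPKM in EpiSCs. Interferon-stimulated response elements were searched on both strands as GAAA, any 2 bases and GAAA, and are shown for 3 of the higher genes. The motif stood in 9 of 32 genes with a promoter (of 36 compared): 4 of 9 higher, 1 of 7 lower and 4 of 16 within 2-fold. It stood in 2.77% of compared genes with a promoter and in 2.98% of all promoters. Capitals mark 1 match in each, though Isg15 held 3 and Bst2 2, and in Gbp2 they are the reverse complement. The windows were chr3:142620574-142620643 for Gbp2, chr4:156200857-156200926 for Isg15 and chr8:71537563-71537632 for Bst2.
Gbp2: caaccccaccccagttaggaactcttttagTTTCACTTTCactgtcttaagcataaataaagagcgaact
Isg15: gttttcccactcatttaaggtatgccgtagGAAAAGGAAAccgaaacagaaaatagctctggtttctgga
Bst2: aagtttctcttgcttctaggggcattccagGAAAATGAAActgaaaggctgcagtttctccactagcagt
The fourth higher gene with the letters was Cd59a, a complement inhibitor, at 1.34 FPKM in ESCs and 18 FPKM in EpiSCs.

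Genes of translation and RNA regulation were mostly level. All 53 cytoplasmic ribosomal protein genes lay within 2-fold, from -0.40 to 0.35, with a median of -0.06, although many share sequence with other genes. Of 28 splicing regulators 3 were higher and 0 lower, with Ptbp2, the neural paralog of Ptbp1, at 9.08 FPKM in ESCs and 26.1 FPKM in EpiSCs. Among 28 RNA regulators 5 were higher and 3 lower. Lin28b, which blocks let-7 maturation, was at 4.78 FPKM in ESCs and 14.4 FPKM in EpiSCs, while Lin28a, on the list of shared pluripotency genes, was at 107 and 143 FPKM (difference 0.41). Zfp36l2 and Zfp36l1, which destabilise AU-rich messages, were at 9.27 and 32.4 FPKM (difference 1.70) and 16.1 and 5.96 FPKM (difference -1.30). Variant and linker histones held 0 higher and 4 lower of 15, and 0 of these 4 were called again in the second pair.

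**Figure D4:**
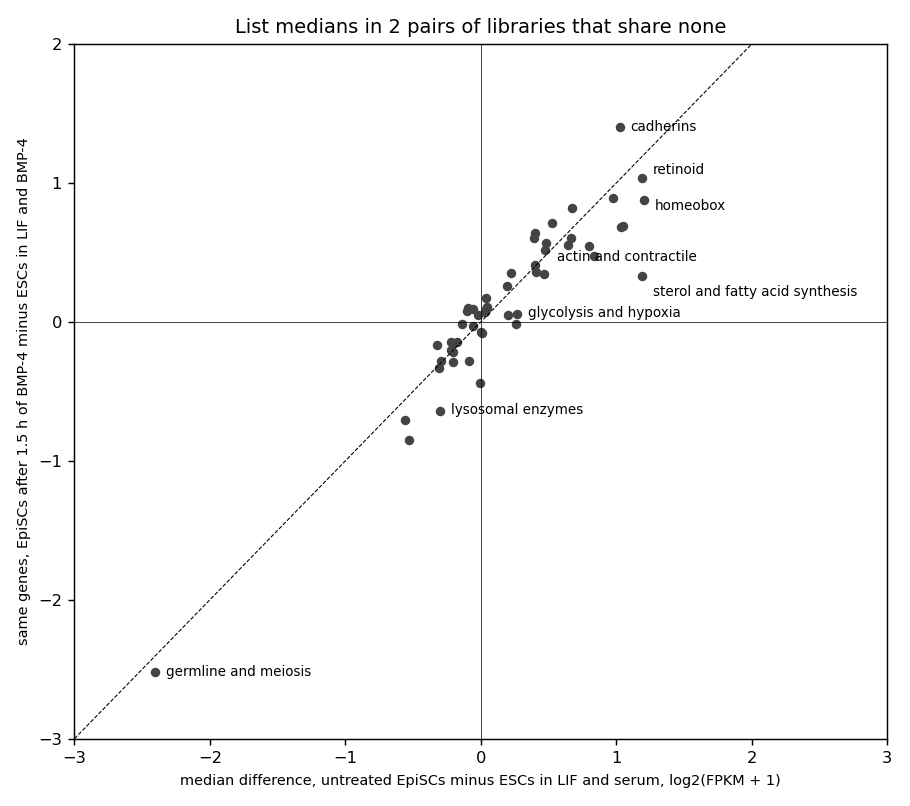
Median difference of each function list with at least 9 genes compared in the first pair (x axis, untreated EpiSCs minus ESCs in LIF and serum) and in the second pair (y axis, EpiSCs after 1.5 h of BMP-4 minus ESCs in LIF and BMP-4) over the same genes, on the log2(FPKM + 1) scale. The dashed line is equality. Germline genes stand at -2.41 and -2.52 and the list of cadherins and related adhesion genes at 1.03 and 1.40. Sterol and fatty acid synthesis stands at 1.19 and 0.33.

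Some genes were close to on or off. At least 10 FPKM in EpiSCs with under 0.5 in ESCs was met by 48 genes (0.441%), and the converse by 87 (0.799%). The other 3 libraries met the same limits for 24 and 50 of them. Small RNAs, predicted genes and pseudogenes made up 8 of the 48 and 23 of the 87, and known pluripotency genes 3 and 7. Among the ESC-only genes, Calcoco2, a receptor of selective autophagy that most cell types express, was at 27.5 and 91.2 FPKM in ESCs and 0.0516, 0.0924 and 0.114 FPKM in EpiSCs. Psma8, the testis form of a proteasome subunit, was at 24.6 FPKM in ESCs and listed at 0 in EpiSCs. Among the EpiSC-only genes, Irgm1, an immunity-related GTPase, was at 0.215 FPKM in ESCs and 19.08 FPKM in EpiSCs and Lzts1, a cytoskeletal tumour suppressor, at 0.0682 FPKM in ESCs and 14.8 FPKM in EpiSCs.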

How the data were processed

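RNA-seq of directional poly(A) libraries gave the deposited FPKM values, which the authors made with TopHat and Cufflinks 2.0.13 on build mm9, with Picard and SAMtools also named, per the submitters' processing notes. Annotation, scaling and other settings: not given in the sources used here. Deposited lower and upper limits are the Cufflinks 95% intervals. Depth was estimated from the whole-read steps of low values and is approximate.

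From these, differences of log2(FPKM + 1) were computed with Python 3.11.15, pandas 2.3.3 and numpy 2.4.6, and plotted with matplotlib 3.10.9. The code was tested on simulated data. A group held 1 library, so no test was made. The members and gene lists were chosen with earlier results of these data known. Of 2130 listed symbols, 2113 were found, 28 by an older symbol, and function lists leave out the known pluripotency genes. Named genes are the 30 furthest apart in each direction with at least 10 FPKM in 1 library and intervals apart, up to 6 per direction and the 4 most abundant level members of each list, all members of lists of up to 12, and chosen paralog pairs. Of 1847 genes checked against GENCODE transcripts, 118 share over 25% of their 40-base words with another gene. Other pseudocounts, filters and scalings were tried.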

Additional observations from a re-analysis of the deposited data

Results flagged for a closer look

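In 5 genes the first pair of libraries (untreated EpiSCs against ESCs in LIF and serum) and the second pair (EpiSCs after 1.5 h of BMP-4 against ESCs in LIF and BMP-4) gave differences of at least 2-fold in opposite directions. The opposition was not tested, with 1 library a group. Igf2bp3, an RNA-binding protein, differed by 1.12 in the first pair and -1.57 in the second, with 4.01 and 31 FPKM in the ESC libraries and 9.87 and 9.81 FPKM in the EpiSC libraries. Ier3, an immediate early gene, differed by 1.20 and -1.05, with 1.48 and 10.9 FPKM in ESCs and 4.69 and 4.77 FPKM in EpiSCs. In both genes the ESC libraries were further apart than the EpiSC libraries. The histone gene Hist3h2a differed by -1.04 and 1.63, with 9.44 and 0.692 FPKM in ESCs and 4.09 and 4.22 FPKM in EpiSCs. The small RNA genes AF357399 and Snora74a gave -10.2 and 8.22, and -3.38 and 2.21, where a library of each pair listed them at 0.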

How the results depend on the processing

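No paired analysis was possible because there was 1 library a group, and leaving out a replicate was not possible for the same reason. The count of higher genes, 1229, became 517 with a pseudocount of 5 FPKM, 642 where means under 5 FPKM were dropped, and 732 with at least 1 FPKM in each library. The 1083 lower genes became 545, 641 and 625. Those with intervals apart went from 292 to 143 higher and from 318 to 153 lower with 1 FPKM in each. A pseudocount of 0.1 gave 1543 and 1270, and no filter 1376 and 1210. Scaling by the median gave 1288 and 1039, and by the upper quartile 1421 and 971, with 53.2%, 55.4% and 59.4% of called genes higher in the main, median and upper-quartile scaling. The median of all genes was then 0.01 and 0.08. Among list medians at least 1 in size, Hedgehog changed sign, to -1.35 with 1 FPKM in each, and mesoderm markers, to -0.0052 with no filter. Medians nearer to 0 changed sign in more lists: with 1 FPKM in each, collagens went from 0.04 to -0.27 and the Fox family from 0.40 to -0.03. With EpiSCs after 24 h of BMP-4 in the second pair, 71.6% and 75.2% were called again. At 1 to 5 FPKM the upper limit was a median of 113% above the value in ESCs, so low genes are uncertain.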

Other observations

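Genes of the Y chromosome differed in their pattern over the libraries. Eif2s3y, a translation initiation factor gene, was at 27.4 and 37.4 FPKM in the ESC libraries, listed at 0 in untreated EpiSCs and after 1.5 h of BMP-4, and at 0.0443 FPKM after 24 h. Ddx3y, an RNA helicase gene, was at 70 and 37.8 FPKM in ESCs and 42, 39.9 and 42.5 FPKM in EpiSCs. Uty, a demethylase-family gene, was at 6.07 and 5.52 FPKM in ESCs and 5.76, 5.37 and 5.82 FPKM in EpiSCs. Uba1y, which shares sequence with another gene, was at 2.53 and 5.78 FPKM in ESCs, listed at 0 in untreated EpiSCs, and at 0.0223 and 0.0183 FPKM after 1.5 and 24 h of BMP-4. Gm21704, a predicted gene, was listed at 0 in both ESC libraries and was at 3.92, 4.18 and 8.29 FPKM in EpiSCs. Its lower limits were 0 in the EpiSC libraries too, and it shares its locus with Rbmy, so its values are uncertain. Ddx3y and Uty were above 0 in all 5 libraries, and the other genes named here were not.

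Called genes also sat side by side on the genome. Runs of at least 3 consecutive compared genes with the same call numbered 33 for higher genes (117 genes) and 39 for lower genes (132 genes), and how many runs the order of genes alone would give was not tested. The longest lower run held 7 genes on chromosome 7 over 150 kb: Ifitm1, Ifitm3, Ifitm6, B4galnt4, Pkp3, Sigirr and Ano9. A run on chromosome 16 held Dppa4, Dppa2, Morc1 and Dzip3, of which the Dppa genes share sequence with other genes. Higher runs of 6 genes included Chst15, Oat, Nkx1-2, Lhpp, Fam53b and Mettl10 on chromosome 7 over 616 kb.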
